A study of Mus musculus with 20 samples.

Results

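The 10 genes described here, Acly, Acaca, Acacb, Fasn, Elovl6, Scd1, Me1, Srebf1, Mlxipl and Thrsp, belong to de novo fatty acid synthesis and were taken by symbol from the 25219 genes of the deposited table. RNA was sequenced from inguinal white adipose tissue (iWAT) and brown adipose tissue (BAT) of male mice on a mixed C57Bl/6 background, in 5 libraries for each of 4 groups. Ai-α4KO mice carry floxed alleles of α4, a regulatory partner of PP2A-type phosphatases encoded by Igbp1, together with Adiponectin-CreERT2, a tamoxifen-activated recombinase active in cells that express adiponectin, which are adipocytes. Control mice carried the floxed alleles without CreERT2, although the labels call them WT, and both genotypes were given 5 injections of 100 mg/kg tamoxifen within 6 days from 2 months of age, with tissue taken 1 week after recombination. The study asked how loss of α4 in adipocytes changes the transcriptome of each fat depot. The labels do not say whether 1 mouse gave both tissues, nor what sets same-numbered libraries apart. An adipose depot also holds vessels, immune cells and stroma, in which this recombinase is not active, and in bulk RNA fewer cells of a type and less RNA per cell cannot be told apart.

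De novo fatty acid synthesis turns surplus carbon, largely glucose, into palmitate and longer or unsaturated fatty acids. Citrate leaves the mitochondrion and is cleaved by Acly to cytosolic acetyl-CoA, which the acetyl-CoA carboxylases Acaca and Acacb convert to malonyl-CoA, and Fasn condenses both into palmitate with NADPH that comes in part from the malic enzyme Me1. Elovl6 lengthens palmitate to stearate and Scd1 places a double bond in stearate and palmitate, while the transcription factors Srebf1, driven by insulin, and Mlxipl (ChREBP), driven by glucose metabolites, act on the promoters of the pathway, of which Thrsp (Spot 14) is a classical target. In mice, brown and white fat are both strong sites of the pathway.

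Promoter windows of 250 bases upstream of an annotated start were available from RefSeq (GRCm38.p6) for 9 of the 10 genes, 13 windows in all. The windows were searched on both strands for CCAAT, the box bound by NF-Y, for CACGTG, a palindromic E-box, and for GGGCGG, a GC box. Those below are shown for the genes with the lowest log2 fold changes of the 10 in both tissues (Thrsp, Fasn), for the first enzyme of the pathway (Acly) and for a gene with more than 1 annotated start (Mlxipl). Each reads 5′ to 3′ on the strand of the gene and ends at the base before the start, and capitals mark every match to the 3 motifs on either strand (ATTGG is CCAAT, and CCGCCC is GGGCGG, on the other strand).
Fasn, chr11:120824548-120824797, minus strand: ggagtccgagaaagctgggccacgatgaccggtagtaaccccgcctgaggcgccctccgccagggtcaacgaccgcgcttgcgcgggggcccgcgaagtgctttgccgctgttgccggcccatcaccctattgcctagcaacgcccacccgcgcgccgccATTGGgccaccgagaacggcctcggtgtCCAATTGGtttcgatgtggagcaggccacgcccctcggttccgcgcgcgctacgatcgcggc
Thrsp, chr7:97417551-97417800, minus strand: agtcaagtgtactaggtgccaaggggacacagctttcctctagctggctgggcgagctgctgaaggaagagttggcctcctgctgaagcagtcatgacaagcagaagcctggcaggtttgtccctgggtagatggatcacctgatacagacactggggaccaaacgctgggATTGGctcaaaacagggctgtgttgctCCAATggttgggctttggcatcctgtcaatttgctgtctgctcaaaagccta
Acly, chr11:100528001-100528250, minus strand: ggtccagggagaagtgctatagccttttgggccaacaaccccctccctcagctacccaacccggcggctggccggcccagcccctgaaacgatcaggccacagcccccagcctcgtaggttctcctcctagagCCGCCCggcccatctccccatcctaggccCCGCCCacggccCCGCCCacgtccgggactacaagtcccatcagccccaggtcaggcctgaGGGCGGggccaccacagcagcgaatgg
Mlxipl, upstream start, chr5:135089640-135089889, plus strand: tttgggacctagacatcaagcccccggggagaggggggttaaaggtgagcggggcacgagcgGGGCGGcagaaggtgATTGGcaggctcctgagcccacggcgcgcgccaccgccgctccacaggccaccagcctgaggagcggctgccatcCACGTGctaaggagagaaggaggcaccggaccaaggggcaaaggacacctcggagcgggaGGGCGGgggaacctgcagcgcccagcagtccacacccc
Mlxipl, downstream start, chr5:135106641-135106890, plus strand: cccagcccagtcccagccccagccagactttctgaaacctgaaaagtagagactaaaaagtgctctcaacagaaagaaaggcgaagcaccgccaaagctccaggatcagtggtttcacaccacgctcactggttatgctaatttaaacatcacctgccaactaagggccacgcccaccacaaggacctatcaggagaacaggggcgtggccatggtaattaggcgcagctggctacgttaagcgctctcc

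Fasn held CCAAT on its own strand at 62 to 58 bases before the start and on the other strand at 59 to 55 and at 90 to 86, and the first and second of these overlap. Thrsp held CCAAT at 52 to 48 bases before the start and, on the other strand, at 79 to 75. Acly held no CCAAT and 4 matches to GGGCGG, and the upstream Mlxipl window was the only 1 of the 13 with CACGTG, at 98 to 93 bases before its start. CCAAT was found in 7 and GGGCGG in 5 of the 13 windows of these genes. Of 32851 RefSeq windows of the same length, 33.8% held CCAAT, 32.7% held GGGCGG and 6.02% held CACGTG. A match is a description of the letters and not a binding site. The deposited Mlxipl entry begins at the downstream start, 17001 bases from the upstream one, and its downstream window held none of the 3 motifs. Counts per gene do not tell the isoforms of Mlxipl or Srebf1 apart.

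Across the 20 libraries, 24023371 to 50384446 reads were counted, and the genes described here had at least 556 counts in every library. Igbp1 ranged from 57.5 to 76.6 CPM (reads scaled to an equal total per library after TMM normalization) for Control iWAT and from 10.1 to 11.1 for Ai-α4KO iWAT. In BAT it ranged from 85.4 to 105 CPM in Control and from 13.7 to 25.2 in Ai-α4KO. Control iWAT libraries 1 and 4 stood apart by their B cell markers, whose summed level was 500.7 and 194 CPM against at most 8.71 CPM in the other 3. Skeletal muscle markers summed to 7685 CPM in Control iWAT library 4 against at most 193 in the others of its group, and to 5694 CPM in Ai-α4KO iWAT library 1, the highest of its group for 7 of the 10 genes, against at most 122 in the others. With either library left out, all 10 genes were still called lower in iWAT. Epithelial markers were also high in Control iWAT libraries 1 and 4 and in Ai-α4KO iWAT libraries 1 and 2. Of the brown adipocyte markers, all 7 were higher in Control BAT than in Control iWAT. They summed to 1511 to 3236 CPM in Ai-α4KO BAT and 21.3 to 48.3 CPM in Ai-α4KO iWAT, so the depots matched their labels. The summed level of the 8 adipocyte markers was at least 12664 CPM in every library. In Ai-α4KO BAT the muscle markers summed to 14188 to 48127 CPM, beside 13411 to 16784 CPM for the adipocyte markers.

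In Ai-α4KO iWAT, all 10 genes were lower than in Control, which was called at a fold of 2 or more with an adjusted p under 0.01 (quasi-likelihood test of edgeR, Benjamini-Hochberg over 14604 genes, and over the genes tested in each other comparison, 14344 for BAT), where 10.7% of all genes tested were called lower and 11.3% higher. SE below is the standard error of a log2 fold change. Their log2 fold changes ran from -5.64 for Thrsp to -1.59 for Srebf1, with a median of -3.37 against 0.01 for all genes tested. The Ai-α4KO libraries lay below every Control library for each of the 10 genes, as they did for 18.3% of all genes tested, while 20.7% lay above Control in every library. In Ai-α4KO BAT, 9 of the 10 genes were called lower, where 13.3% of all genes tested were called lower and 18.2% higher. The BAT median was -2.55 against -0.03 for all genes, and 8 of the 10 genes had no overlap of the libraries, as did 23.0% of all genes tested in the lower direction and 24.7% in the higher. Srebf1 in BAT missed the threshold. These directions held without TMM factors and under upper-quartile normalization, while scaling to adipocyte markers, described further on, turned the sign of Srebf1 in both tissues and of Scd1 in BAT.

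**Figure D1:**
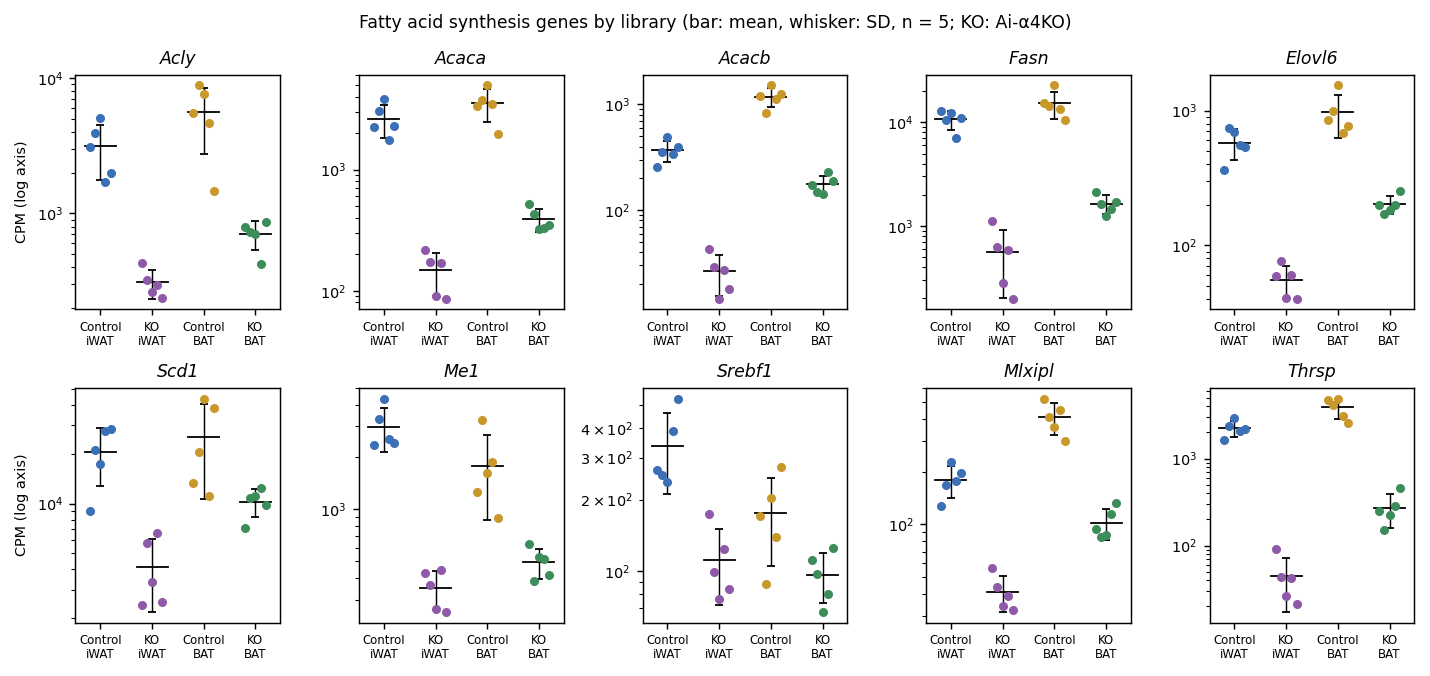
Each panel shows 1 gene, with CPM of each library on a log axis for the 4 groups, horizontal bars at the mean and whiskers of 1 SD (n = 5). In iWAT every Ai-α4KO point lies below every Control point for all 10 genes, and in BAT the groups overlap for Scd1 and Srebf1.

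The enzymes that make cytosolic acetyl-CoA and malonyl-CoA were lower in both tissues. Acly (Entrez 104112; chromosome 11, 100476352 to 100528000) is ATP citrate lyase. In iWAT, Acly was measured at 3116, 3919, 5061, 1710.1 and 2002 CPM in Control libraries 1 to 5 and at 431, 323, 263, 295 and 237 CPM in Ai-α4KO libraries 1 to 5. Control libraries 4 and 5 were the low ones of their group and still stood above all of Ai-α4KO. The mean was 3162 ± 1382 CPM in Control and 309.8 ± 75.0 CPM in Ai-α4KO (SD, n = 5 each), with a log2 fold change of -3.36 ± 0.316 (SE, adjusted p = 1.05e-05). In BAT, Acly was measured at 5558, 8879.9, 7666, 4651 and 1473 CPM in Control libraries 1 to 5 and at 789, 734, 709, 425 and 869 CPM in Ai-α4KO libraries 1 to 5. Control library 5 was low, and remained above every Ai-α4KO library. The log2 fold change in BAT was -3.03 ± 0.401 (SE, adjusted p = 4.15e-05).

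Acaca (Entrez 107476; chromosome 11, 84195438 to 84401651) encodes ACC1, the cytosolic acetyl-CoA carboxylase that supplies malonyl-CoA for synthesis. In iWAT, Acaca was measured at 2266, 3066, 3799, 1751 and 2302 CPM in Control libraries 1 to 5 and at 217, 171, 90.9, 169 and 86.1 CPM in Ai-α4KO libraries 1 to 5. The Ai-α4KO mean was 5.57% of the Control mean, a log2 fold change of -4.17 ± 0.328 (SE, adjusted p = 4.08e-06). In BAT, Acaca was measured at 3376, 3767, 4969.8, 3488 and 1976 CPM in Control libraries 1 to 5 and at 523, 433, 324, 327 and 347 CPM in Ai-α4KO libraries 1 to 5. The groups were far apart, with a log2 fold change of -3.21 ± 0.243 (SE, adjusted p = 4.83e-07) and Control library 5 again the lowest of its group. Acacb (Entrez 100705; chromosome 5, 114165518 to 114250758) encodes ACC2, which sits at the mitochondrial outer membrane, where its malonyl-CoA restrains fatty acid import. In iWAT, Acacb was measured at 256, 358, 489, 342 and 399 CPM in Control libraries 1 to 5 and at 42.8, 29.2, 14.6, 27.2 and 18.1 CPM in Ai-α4KO libraries 1 to 5. Its log2 fold change was -3.81 ± 0.306 (SE, adjusted p = 4.47e-06). In BAT, Acacb was measured at 1196, 836, 1520.1, 1115 and 1249 CPM in Control libraries 1 to 5 and at 172, 149.6, 141, 229 and 187 CPM in Ai-α4KO libraries 1 to 5. The BAT values of the genotypes did not overlap either, and the log2 fold change was -2.79 ± 0.193 (SE, adjusted p = 2.58e-07).

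The FPKM ratio of Acaca to Acacb, a comparison per length, averaged 6.78 ± 1.58 for Control iWAT against 5.28 ± 0.629 for Ai-α4KO iWAT (SD, n = 5 each). The BAT ratios averaged 2.88 ± 0.982 for Control and 2.16 ± 0.639 for Ai-α4KO. On the log2 scale the genotype difference of the ratio was -0.33 in iWAT (exact permutation test, two-sided, p = 0.11) and -0.39 in BAT (p = 0.24 by the same exact permutation test), neither of which passed. Between the depots of Control mice the log2 ratio differed by -1.28, lower in BAT (p = 0.0079 by the same exact permutation test, which 252 arrangements cannot go below, and 0.024 after Benjamini-Hochberg adjustment over these 3 comparisons).

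Fasn (Entrez 14104; chromosome 11, 120805958 to 120824547), fatty acid synthase, carries out every step from malonyl-CoA to palmitate, and its promoter window is printed above. In iWAT, Fasn was measured at 12770.4, 10573, 12339, 7005 and 10982 CPM in Control libraries 1 to 5 and at 1109.7, 622, 282, 591 and 198 CPM in Ai-α4KO libraries 1 to 5. Ai-α4KO libraries 3 and 5 were the low ones and library 1 the high one, and Control library 4 was lowest among Controls. The mean went from 10734 ± 2276 to 560.5 ± 359 CPM (SD, n = 5 each), a 19.2-fold lower level and a log2 fold change of -4.26 ± 0.452 (SE, adjusted p = 2.07e-05). In BAT, Fasn was measured at 15245, 14318, 22872, 13473 and 10650.1 CPM in Control libraries 1 to 5 and at 2139.9, 1641, 1251, 1444 and 1718 CPM in Ai-α4KO libraries 1 to 5. No libraries overlapped, and the mean of Ai-α4KO was 9.34-fold lower, with a log2 fold change of -3.26 ± 0.234 (SE, adjusted p = 3.25e-07). Me1 (Entrez 17436; chromosome 9, 86581363 to 86695914), the cytosolic malic enzyme, yields NADPH for these reductions. In iWAT, Me1 was measured at 2338, 3317, 4346, 2555 and 2414 CPM in Control libraries 1 to 5 and at 428, 363, 266, 445 and 255 CPM in Ai-α4KO libraries 1 to 5. Its log2 fold change was -3.10 ± 0.238 (SE, adjusted p = 3.81e-06). In BAT, Me1 was measured at 1249.6, 3271, 1619.6, 1871 and 886 CPM in Control libraries 1 to 5 and at 629, 386, 527, 514 and 416 CPM in Ai-α4KO libraries 1 to 5. Control libraries ranged more widely in BAT, with library 2 high and library 5 low, and the log2 fold change was -1.88 ± 0.297 (SE, adjusted p = 0.000167).

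The enzymes that modify palmitate, Elovl6 and Scd1, were called lower in both tissues under TMM, with Scd1 in BAT of the other sign when scaled to adipocyte markers. Elovl6 (Entrez 170439; chromosome 3, 129532386 to 129638493) adds carbons to palmitate to give stearate. In iWAT, Elovl6 was measured at 363, 741, 688, 553 and 541 CPM in Control libraries 1 to 5 and at 59.6, 76.1, 40.7, 60.5 and 40.3 CPM in Ai-α4KO libraries 1 to 5. The groups did not overlap, with a log2 fold change of -3.38 ± 0.246 (SE, adjusted p = 3.3e-06). In BAT, Elovl6 was measured at 858, 1001, 1543, 681 and 769 CPM in Control libraries 1 to 5 and at 199, 171, 184, 199 and 252 CPM in Ai-α4KO libraries 1 to 5. The Ai-α4KO libraries were close together in BAT, and the log2 fold change was -2.31 ± 0.222 (SE, adjusted p = 3.15e-06). Scd1 (Entrez 20249; chromosome 19, 44394450 to 44407709) makes the monounsaturated palmitoleate and oleate that dominate stored triglyceride. In iWAT, Scd1 was measured at 9076, 21163, 17394, 27795 and 28306 CPM in Control libraries 1 to 5 and at 2426, 5739, 3349, 6620.5 and 2503 CPM in Ai-α4KO libraries 1 to 5. Control library 1 was low and lay nearest to Ai-α4KO library 4. The log2 fold change was -2.34 ± 0.378 (SE, adjusted p = 0.000352). In BAT, Scd1 was measured at 13350.2, 20592, 43651, 11198 and 38384 CPM in Control libraries 1 to 5 and at 7112, 10796, 11182, 12486 and 9860.0 CPM in Ai-α4KO libraries 1 to 5. Ai-α4KO library 4 lay above Control library 4, and Control libraries 3 and 5 were the high ones of their group. The log2 fold change in BAT was -1.34 ± 0.368 (SE, adjusted p = 0.00697). That call was lost when any 1 of 7 libraries was left out (Control 3 or 5, or any Ai-α4KO library), with log2 fold changes of -1.54 to -1.06 over all 10 such fits, and it was also lost without TMM factors (-1.08), by limma on log2(FPKM + 1) (-0.89), with the B cell covariate (-0.66, adjusted p = 0.243) and with the replicate block (-1.16, adjusted p = 0.0167). In BAT the B cell markers were near the floor, with sums of 1.45 to 5.19 CPM in Control and 6.47 to 17.2 CPM in Ai-α4KO. The B cell covariate is therefore a weak measure of B cells there. Scd1 reads may be shared with the paralogs Scd2, Scd3 and Scd4.

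Thrsp had the lowest log2 fold change of the 10 genes in both tissues. Thrsp (Entrez 21835; chromosome 7, 97412957 to 97417510) encodes Spot 14, a small acidic protein that acts with its paralog Mid1ip1 on acetyl-CoA carboxylase. In iWAT, Thrsp was measured at 1646, 2349.8, 2906, 2099.7 and 2214 CPM in Control libraries 1 to 5 and at 91.7, 43.7, 26.3, 42.2 and 21.4 CPM in Ai-α4KO libraries 1 to 5. Ai-α4KO library 1 was the highest and library 5 the lowest of its group. The mean went from 2243 ± 455 to 45.1 ± 27.8 CPM (SD, n = 5 each), a level 49.8-fold lower and a log2 fold change of -5.64 ± 0.421 (SE, adjusted p = 3.53e-06). In BAT, Thrsp was measured at 4760.0, 4188, 4866, 3127 and 2561 CPM in Control libraries 1 to 5 and at 250.4, 149, 227, 284 and 458 CPM in Ai-α4KO libraries 1 to 5. The BAT groups were also apart, with a mean 14.2-fold lower and a log2 fold change of -3.86 ± 0.312 (SE, adjusted p = 7.75e-07).

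The transcription factor genes had log2 fold changes nearer to 0 than Acly, Acaca, Acacb, Fasn and Elovl6 in both tissues, while in BAT Scd1 and Me1 lay nearer to 0 than Mlxipl, a comparison of estimates without a test of its own. Srebf1 (Entrez 20787; chromosome 11, 60199089 to 60220604) encodes SREBP-1, whose processing and transcription are raised by insulin. In iWAT, Srebf1 was measured at 266, 254, 237, 388 and 530.5 CPM in Control libraries 1 to 5 and at 174, 99.6, 76.4, 124 and 83.9 CPM in Ai-α4KO libraries 1 to 5. Ai-α4KO library 1 came closest to the Control range, and Control libraries 4 and 5 were high. Its log2 fold change was -1.59 ± 0.284 (SE, adjusted p = 0.00069). In BAT, Srebf1 was measured at 171, 88.5, 203, 139 and 274 CPM in Control libraries 1 to 5 and at 111, 97.7, 67.6, 80.3 and 125 CPM in Ai-α4KO libraries 1 to 5. Control library 2 lay among the Ai-α4KO libraries. The log2 difference of -0.91 ± 0.272 (SE) did not pass in BAT (adjusted p = 0.0117), and without Control BAT library 2 it was -1.09 and passed (adjusted p = 0.00162). Mlxipl (Entrez 58805; chromosome 5, 135106891 to 135138382) encodes ChREBP. In iWAT, Mlxipl was measured at 127, 167, 228, 177 and 197 CPM in Control libraries 1 to 5 and at 56.2, 43.8, 34.4, 38.9 and 32.4 CPM in Ai-α4KO libraries 1 to 5. The log2 fold change was -2.13 ± 0.191 (SE, adjusted p = 8.12e-06). In BAT, Mlxipl was measured at 525, 409.6, 363, 452 and 299.8 CPM in Control libraries 1 to 5 and at 93.7, 84.5, 86.7, 115 and 132 CPM in Ai-α4KO libraries 1 to 5. No libraries overlapped in either tissue, and the log2 fold change in BAT was -2.04 ± 0.179 (SE, adjusted p = 1.55e-06).

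On the FPKM scale, which is per length, Scd1 was at 3858 ± 1541 in Control iWAT (SD, n = 5) and ranked 4 of all 25219 genes, and Thrsp at 1926 ± 282 ranked 11. In Control BAT Scd1 ranked 3 and Thrsp 8. Fasn followed at 968 ± 200.1 FPKM in Control iWAT, Me1 at 744 ± 164, Acly at 633 ± 246 and Acaca at 259 ± 64.7, while Elovl6, Srebf1, Mlxipl and Acacb were between 38.7 and 86.7 FPKM on average. In Ai-α4KO iWAT Scd1 ranked 66 and Thrsp 1748. In Ai-α4KO BAT Scd1 ranked 17 and Thrsp 359. The genes together held 1.95 ± 0.329% of the summed FPKM of Control iWAT against 0.252 ± 0.095% of Ai-α4KO iWAT (SD, n = 5 each). In BAT they held 2.17 ± 0.623% in Control and 0.551 ± 0.0435% in Ai-α4KO. Scd1 made up 43.4 ± 12.5% of the FPKM of the 10 genes in Control iWAT against 70.3 ± 12.0% in Ai-α4KO iWAT, with library values of 28.7 to 57.2% and 49.5 to 79.1%. In BAT its share was 38.1 ± 16.3% in Control and 70.4 ± 7.31% in Ai-α4KO, with library values of 24.4 to 62.5% and 60.2 to 76.2%, so the means differed by 26.9 and 32.2 percentage points while the libraries of the genotypes overlapped in both tissues.

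**Figure D2:**
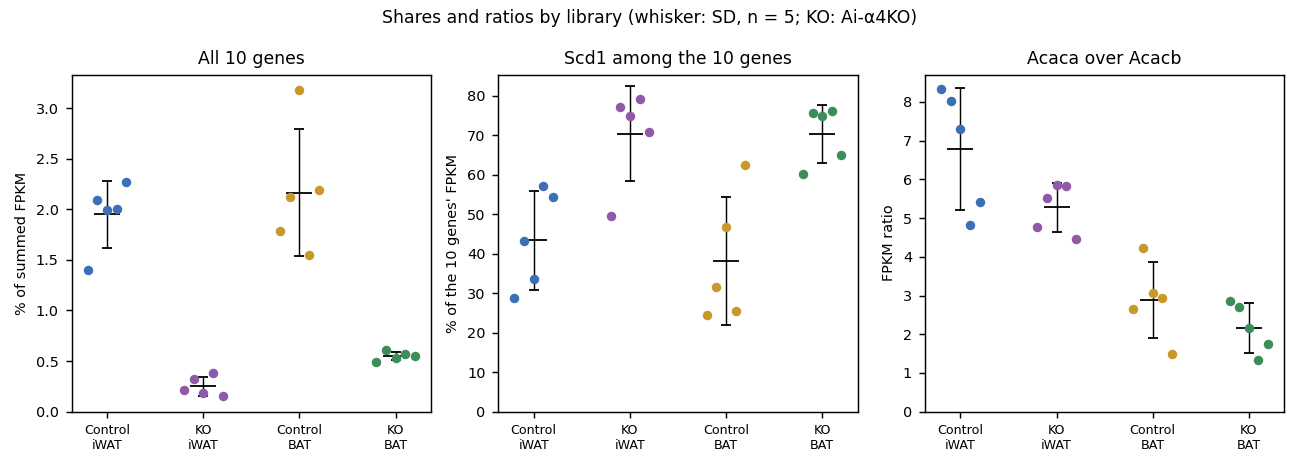
Points are libraries and whiskers 1 SD around the mean (n = 5), for the share of summed FPKM held by the 10 genes, the share of Scd1 among them, and the FPKM ratio of Acaca to Acacb. The 10 genes average 1.95% and 0.252% in Control and Ai-α4KO iWAT, and 2.17% and 0.551% in BAT, and the ratio of Acaca to Acacb is lower in BAT than in iWAT.

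Within groups the genes did not all move together. Control iWAT library 1, which had high B cell markers, was the lowest Control iWAT library for 6 of the 10 genes, and library 3 the highest for 6. Ai-α4KO iWAT library 1 was the highest of its group for 7 genes and library 5 the lowest for 7. In Control BAT, library 3 was highest for 6 genes and library 5 lowest for 6, yet library 5 had the second-highest Scd1 and the highest Srebf1 of its group. Across the 20 libraries, the log2 CPM of Thrsp had a Pearson's r of 0.991 with the mean of the other 9 genes, Acaca 0.987, Scd1 0.837 and Srebf1 0.599. The libraries share genotype and tissue groups, so these values describe the groups as much as single libraries.

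**Figure D3:**
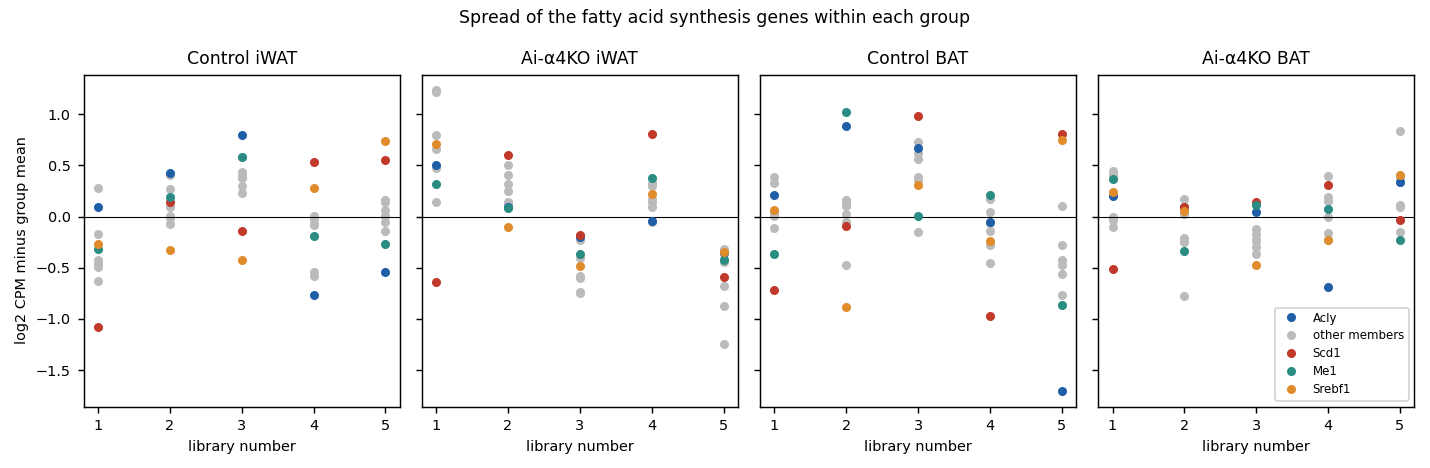
Points show log2 CPM of a library minus the mean of its group, for library numbers 1 to 5 of each group, with Acly, Scd1, Me1 and Srebf1 in colour and the other 6 genes in grey. In Control BAT library 5, Scd1 and Srebf1 lie above the group mean while Acly and Me1 lie below it.

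Brown fat oxidizes fatty acids for heat and white fat mainly stores them, and the depots of Control mice were compared for the 10 genes. In Control BAT, 2 of the 10 genes were called higher than in Control iWAT, where 7.22% of all genes tested were called higher, and 0 were called lower, against 14.7% of all genes. Acacb differed by 1.65 ± 0.201 (SE, adjusted p = 5.96e-05) on the log2 scale and Mlxipl by 1.16 ± 0.182 (SE, adjusted p = 0.000318), both with no overlap of libraries, as 18.1% of all genes tested had in the higher direction. Thrsp had a log2 difference of 0.76 ± 0.209 (SE, adjusted p = 0.0098), which is under the fold of 2. Srebf1 and Me1 had values of -0.96 (adjusted p = 0.0227) and -0.80 (adjusted p = 0.0512). Acly, Acaca, Fasn, Scd1 and Elovl6 had estimates from 0.27 to 0.79, and did not pass. The count of lower genes depended on the fit, with 1 (Srebf1, -1.16) without TMM, 2 by limma on log2(FPKM + 1) (Srebf1, -1.14, and Me1, -1.06) or log2(FPKM + 0.1), and 1 without Control BAT library 2 (Me1, -1.11) or 5 (Srebf1, -1.16). Mlxipl missed the fold without TMM (0.98), by limma on log2(FPKM + 1) (0.97) and with the B cell covariate (0.98). Scaled to adipocyte markers, 7 genes were called higher, where 5999 of all genes were called and the median of all genes shifted to 0.80. Of the 8 markers used for that scaling, Retn (-3.21), Cfd (-1.65) and Cidec (-1.16) were themselves called lower in BAT, and 1 of the 8 had a positive value. Cell type markers also differed between these depots. In BAT all 8 macrophage markers (median -2.47), 5 of 6 stromal, all 7 tested B cell and 3 of 8 adipocyte markers were called lower, and their part in the difference was not tested beyond these fits. The B cell sums were 500.7 and 194 CPM in Control iWAT libraries 1 and 4, at most 8.71 CPM in the others of that group and at most 5.19 CPM in Control BAT.

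In Ai-α4KO mice, 7 of the 10 genes were called higher in BAT than in iWAT, where 8.40% of all genes tested were, and 0 were lower, against 3.09%. Acacb differed by 2.79 ± 0.286 (SE, adjusted p = 0.000112), Thrsp by 2.65 ± 0.423 (SE, adjusted p = 0.000961) and Elovl6 by 1.91 ± 0.195 (SE, adjusted p = 0.000112) on the log2 scale. Acaca, Scd1, Mlxipl and Acly were higher by 1.45, 1.38, 1.37 and 1.23. The Scd1 call was lost when any 1 of 5 libraries was left out (Ai-α4KO iWAT 3 or 5, or Ai-α4KO BAT 3, 4 or 5), at log2 differences of 1.24 to 1.39 (adjusted p = 0.0105 to 0.0155). It was also lost in 1 fit of all libraries (1.32, adjusted p = 0.0112), where Acly was lost too (1.19, adjusted p = 0.0142). Fasn had a log2 difference of 1.59 that did not fall below the threshold (adjusted p = 0.01), and Me1 (0.54) and Srebf1 (-0.17) did not pass. Fasn was called in other fits, among them DESeq2 (adjusted p = 5.64e-05), limma on log2(FPKM + 1) (adjusted p = 0.00565), the replicate block (1.82, adjusted p = 0.00646), 1 fit of all libraries (1.55, adjusted p = 0.00155) and without Ai-α4KO iWAT library 1 (2.01, adjusted p = 0.0012). With a skeletal muscle marker score as a covariate, 0 of the 10 passed and 36 genes were called in all, against 1689 in the main fit. The genes that lost their call had estimates of 1.96 (Acacb), 1.94 (Scd1), 1.59 (Elovl6), 1.40 (Thrsp), 0.90 (Acaca), 0.74 (Mlxipl) and 0.73 (Acly). With a B cell marker score 3 passed and 341 genes were called in all. Thrsp (2.61), Acly (1.30), Acaca (1.26) and Scd1 (0.96) then lost their call. The summed muscle markers were at most 5694 CPM in Ai-α4KO iWAT and at least 14188 CPM in Ai-α4KO BAT, so they and the depot cannot be told apart. Other markers also differed between these depots, with 6 of 7 brown adipocyte markers higher in BAT (median 5.92), and 2 of 6 stromal (median -1.01), 2 of 3 epithelial (median -3.93) and 1 of 8 macrophage markers (median -0.61) lower, and their part was not tested. The epithelial sums were 80.2 and 137 CPM in Ai-α4KO iWAT libraries 1 and 2 and at most 9.10 CPM in the others of that group.

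Whether the genotype effect differed between tissues was tested by the interaction term of 1 model over the 20 libraries, where 4.86% of 15230 genes passed an adjusted p under 0.01, 3.26% with a smaller decrease or larger increase in BAT and 1.60% in the other direction. None of the 10 genes passed by edgeR's quasi-likelihood test, which called 740 genes in all. The DESeq2 Wald test gave 3 of the 10 and called 1648 genes in all, and limma on log2(FPKM + 0.1) gave 2 and called 633. All 10 estimates were positive, meaning a smaller decrease in BAT, where 7678 of the 15230 genes tested were positive. They ran from 0.12 for Mlxipl to 1.81 for Thrsp, and Mlxipl turned to -0.068 when scaled to adipocyte markers. Thrsp (adjusted p = 0.0163), Elovl6 (1.11, adjusted p = 0.0274), Me1 (1.24, adjusted p = 0.0398) and Acacb (1.06, adjusted p = 0.0436) lay between 0.01 and 0.05. Markers moved in the same test, as all 8 macrophage markers were positive with 6 past the threshold (median 1.64), 8 of 10 muscle markers were positive with 0 past it (median 2.64), 2 of 7 brown adipocyte markers passed (median 1.89), and all 7 B cell markers tested were positive with 1 past it (median 4.44). Control iWAT libraries 1 and 4, with the high B cell sums given above, were among the libraries of that test. With the B cell marker score as a covariate Elovl6 passed (1.48, adjusted p = 0.00878), where 373 of all genes did. Leaving out Ai-α4KO iWAT library 1 gave 2 genes past the threshold (1019 of all genes), Thrsp (2.35, adjusted p = 0.00113) and Acacb (1.41, adjusted p = 0.00598), and leaving out Control iWAT library 1, Control BAT library 2 or 3, or Ai-α4KO BAT library 2 gave 1 each, which was Elovl6 without Control iWAT library 1 (1.35) or Control BAT library 3 (1.34), Me1 without Control BAT library 2 (1.58) and Thrsp without Ai-α4KO BAT library 2 (2.06).

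Cell type markers moved with genotype. In iWAT 7 of 8 adipocyte markers were lower in Ai-α4KO (median log2 fold change -1.57), with a summed level of 30970 to 42542 CPM in Control and 12664 to 17722 CPM in Ai-α4KO. In BAT 6 of 8 were lower (median -1.77), at 23465 to 26191 CPM in Control against 13411 to 16784 CPM in Ai-α4KO. All 8 macrophage markers were higher in both tissues, at 1138 to 1926 CPM in Control against 7416 to 9976 CPM in Ai-α4KO iWAT, and at 229 to 517 CPM in Control against 4272 to 6986 CPM in Ai-α4KO BAT. Skeletal muscle markers were higher in Ai-α4KO BAT, 8 of 10 past the threshold, at 999 to 10207 CPM in Control and 14188 to 48127 CPM in Ai-α4KO. Of the brown adipocyte markers, 5 of 6 tested were called lower in iWAT (median -2.42). In BAT 3 of 7 were called lower (median -1.19, or 0.41 when scaled to adipocyte markers), while Cox8b (-1.19), Zic1 (-0.78), Ppargc1a (-0.15) and Dio2 (0.40) were not called. Their summed level was 138 to 948 CPM in Control against 21.3 to 48.3 CPM in Ai-α4KO iWAT, and 7922 to 12189 CPM in Control against 1511 to 3236 CPM in Ai-α4KO BAT. Endothelial markers were lower, 3 of 5 in iWAT and 4 of 5 in BAT, with medians of 0.53 and 0.069 when scaled to adipocyte markers. The 6 stromal markers all had positive values in BAT (median 0.76), 1 past the threshold, and summed to 617 to 1022 CPM in Control against 1227 to 1668 CPM in Ai-α4KO. No adipocyte, macrophage, muscle or endothelial marker was at 0 throughout a group. When the muscle marker score was added as a covariate, all 10 genes in iWAT and 9 in BAT still passed, where 3193 and 3245 of all genes did. In BAT the muscle markers of the genotypes did not overlap, so that fit cannot tell muscle and genotype apart. Without Control iWAT libraries 1 and 4 all 10 passed in iWAT.

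Scaled to the adipocyte markers, so that their mean log2 count is equal in every library, the median of all genes shifted by 1.71 in iWAT and by 1.49 in BAT, and 11023 genes were called higher and 102 lower in iWAT, 9891 higher and 157 lower in BAT. The median of the 10 genes lay 3.41 below that of all genes in iWAT and 2.49 below it in BAT, against 3.38 and 2.52 under TMM. In iWAT 7 of the 10 still passed: Thrsp (-4.05), Fasn (-2.70), Acaca (-2.54), Acacb (-2.17), Elovl6 (-1.69), Acly (-1.68) and Me1 (-1.43). Scd1 (-0.62), Mlxipl (-0.44) and Srebf1 (0.061) did not. In BAT 5 passed, Thrsp (-2.32), Fasn (-1.80), Acaca (-1.77), Acly (-1.58) and Acacb (-1.26), while Elovl6 (-0.80), Mlxipl (-0.50) and Me1 (-0.45) did not, and Scd1 (0.19) and Srebf1 (0.60) had estimates of the other sign. The part of the adipocyte, macrophage and muscle markers in the lower level of the 10 genes was not tested beyond these fits.

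**Figure D4:**
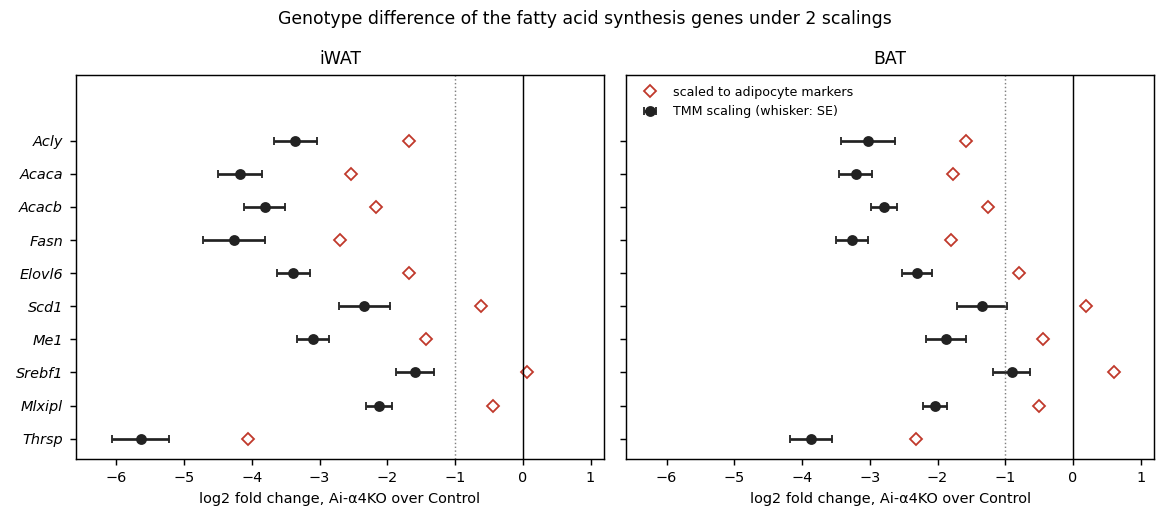
Log2 fold changes of the 10 genes, Ai-α4KO over Control, in iWAT and BAT, with filled points for TMM scaling (whiskers of 1 standard error), open diamonds for scaling to adipocyte markers, and a dotted line at -1. Under TMM all 10 estimates are below 0 in both tissues, and under the adipocyte scaling Srebf1 lies above 0 in both tissues and Scd1 in BAT.

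Most genes that supply carbon and NADPH to the pathway were lower, under TMM. Their median lay 1.61 below that of all genes in iWAT and 1.70 below it in BAT, and 1.64 and 1.69 below it when scaled to adipocyte markers, where the median itself was 0.088 in iWAT (4 lower, 3 higher) and -0.24 in BAT (4 lower, 1 higher). Of 18 tested, 13 were lower and 1 (Me2, 1.09) higher in iWAT, where 10.7% and 11.3% of all genes were, with a median log2 fold change of -1.60, and 13 were lower and 0 higher in BAT, where 13.3% and 18.2% were, with a median of -1.73. Tkt, a transketolase of the pentose phosphate pathway, had log2 fold changes of -3.34 in iWAT and -3.18 in BAT. Slc25a1, the mitochondrial citrate carrier, was lower at -3.19 and -2.54, Acss2, which makes acetyl-CoA from acetate, at -3.12 and -2.74, and Pcx, pyruvate carboxylase, at -3.10 and -2.21. The pentose phosphate enzymes G6pdx (-0.71 and -0.79) and Pgd (-0.82 and -0.99) passed the adjusted p in both tissues but not the fold.

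Most of the other elongases and desaturases did not pass the thresholds under TMM, while scaled to adipocyte markers 12 were higher and 0 lower in each tissue, at medians of 1.52 and 1.85 beside 1.73 and 1.46 for all genes. Of 18 tested in iWAT, 4 were lower (Elovl3, Hacd2, Tecr and Scd2) and 1 (Hacd4) higher, where 10.7% and 11.3% of all genes were, with a median of -0.23. Of 17 tested in BAT, 1 was lower (Tecr) and 5 were higher (Elovl1, Elovl7, Hacd1, Hacd4 and Fads6), where 13.3% and 18.2% of all genes were, with a median of 0.36. In the same libraries 8 of 10 muscle markers (median 1.99) and all 8 macrophage markers (median 3.99) were higher, and their part was not tested. Elovl3, an elongase of very long chains, fell by 2.66 in iWAT and had a value of 0.36 in BAT (adjusted p = 0.624). Hacd4, a dehydratase of the elongation cycle, rose by 1.59 in iWAT and by 3.08 in BAT. Tecr, the last reductase of that cycle, was lower at -1.43 and -1.22.

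Of the regulators under TMM, 1 of 10 in the SREBP list, 2 of 13 among ChREBP, LXR and USF factors and 2 of 12 among regulators of acetyl-CoA carboxylase were lower in iWAT and 0 higher, where 10.7% and 11.3% of all genes were. In BAT 2, 2 and 2 were lower and 1, 0 and 2 higher, where 13.3% and 18.2% of all genes were. Scaled to adipocyte markers, 0 were lower, and the 3 lists had medians of 1.51 to 1.86 in iWAT and 0.98 to 1.65 in BAT, where the shift of all genes given above applies. In the SREBP pathway list, Insig1, which retains SREBP in the endoplasmic reticulum, fell by 1.88 in iWAT as the only 1 of 10 tested, and in BAT Insig1 (-1.39) and Scap (-1.02), the SREBP escort, were lower and Sec24d (1.29), a coat protein of vesicle export, higher. Srebf2, the homolog tied to cholesterol, had values of 0.07 and -0.08. In the list of ChREBP, LXR and USF factors, Klf15 (-2.37) and Rxra (-1.02) were lower in iWAT, and Txnip (-1.67), a target of ChREBP, and Klf15 (-1.38) were lower in BAT, out of 13 tested. Mlx, the partner of ChREBP, had values of 0.23 and -0.01, and the NF-Y subunits Nfya, Nfyb and Nfyc did not pass both thresholds in either tissue. Of 12 regulators of acetyl-CoA carboxylase, Mid1ip1 (-1.14) and Mlycd (-1.27), malonyl-CoA decarboxylase, were lower in iWAT. In BAT the AMPK subunit Prkag2 (-1.69) and the pseudokinase Trib3 (-1.44) were lower, while the AMPK subunits Prkaa2 and Prkab2 rose by 1.08 and 1.26, beside the muscle markers that were higher in the same libraries, whose part was not tested.

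**Figure D5:**
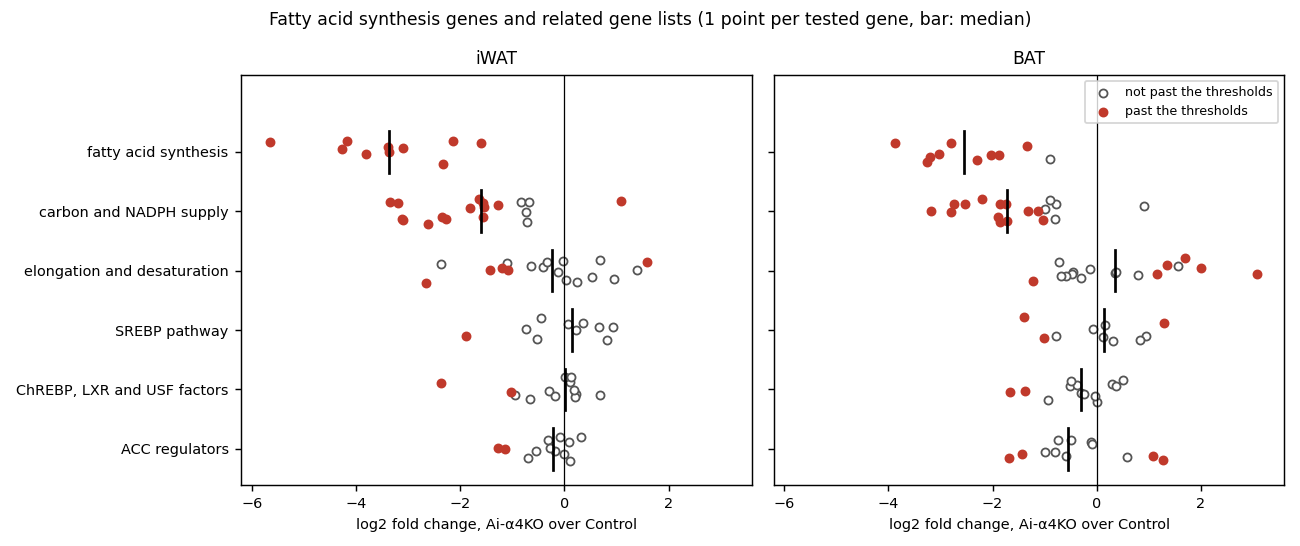
Each point is a tested gene, placed by its log2 fold change in iWAT or BAT, filled when past the adjusted p and fold thresholds, with a bar at the median of each list. The 10 fatty acid synthesis genes have a median of -3.37 in iWAT and -2.55 in BAT, the supply genes -1.60 and -1.73, and the medians of the other lists lie between -0.55 and 0.36. These are TMM values, and scaling to adipocyte markers turned the supply median in iWAT to 0.088.

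The 5 genes outside these lists whose log2 CPM was closest to the mean standardized profile of the 10 genes over the 20 libraries were Msra (Pearson's r = 0.990), Aldh5a1 (0.981), Gnpat (0.979), Sugct (0.978) and Cdo1 (0.974), ranked over all genes tested and described without a test of the correlation. Msra reduces oxidized methionine, Aldh5a1 oxidizes succinate semialdehyde, Gnpat starts ether lipid synthesis in peroxisomes and Cdo1 oxidizes cysteine. Their log2 fold changes in iWAT were -1.26, -2.09, -1.76, -3.21 and -2.36, and in BAT -0.96, -1.83, -1.54, -2.70 and -2.09, in the order given.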

How the data were processed

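RNA from iWAT and BAT of Control and Ai-α4KO mice (5 libraries per group, 20 in all, all used) was sequenced by the authors from stranded mRNA libraries as read pairs. The submitters' processing notes name bcl2fastq 2, STAR 2.5.3a and mm10, and the counting tool and annotation are not given in the sources used here. The authors deposited an expected count per gene and library, not normalized (76.6% of nonzero values whole), and an FPKM value. For the analysis in R 4.3.3, expected counts were rounded and passed to edgeR 4.0.16 (filterByExpr, TMM, quasi-likelihood test, Benjamini-Hochberg over all genes tested), within each tissue or genotype, and in 1 fit of all libraries for the interaction. A call needed a fold of 2 or more with an adjusted p under 0.01, the interaction by adjusted p alone. CPM was scaled over all libraries, log2 values used a prior count of 2, and single ratios were compared by exact permutation tests over 252 arrangements. Promoter motifs were searched in Python 3.11.15 and figures drawn with matplotlib 3.10.9. The edgeR, DESeq2 and limma steps were tested on simulated data.

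The genes described, the gene lists and the alternatives were chosen with earlier results of these data known. Named are the 10 genes, Igbp1, genes of the lists, and the 5 genes outside the lists most correlated with the mean profile. Emr1 and Faim3 in the table were matched through RefSeq synonyms, and Cop1 is listed as Rfwd2. Alternatives were DESeq2 1.42.0, limma 3.58.1 on log2(FPKM + 1) or log2(FPKM + 0.1), other normalizations, filters and thresholds, marker covariates, a replicate block and leaving out libraries. Scaling of the gene lists was an alternative chosen after seeing the data. Same-numbered libraries deviated from their group means with correlations of -0.45 to 0.24, so the numbers were not treated as pairs. Labels do not say that libraries came from separate mice, so p-values measure the spread between these libraries. Totals of 24023371 to 50384446 counts leave counting error small for these genes.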

Additional observations from a re-analysis of the deposited data

How the results depend on the processing

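In iWAT, 237 of 240 refits of single genes gave the same direction and side of the thresholds. The exceptions were Scd1 (-0.62), Mlxipl (-0.44) and Srebf1 (0.061, the other sign), all when scaled to adipocyte markers. In BAT the same held for 211 of 230. Scaled to adipocyte markers, 5 of the 10 genes passed in BAT, with Scd1 at 0.19 and Srebf1 at 0.60, both of the other sign. The Scd1 call in BAT was also lost without TMM (-1.08), under limma (-0.89), with the B cell covariate (-0.66) and with leave-one-out fits. The replicate block gave 10 of 10 genes in iWAT and 8 of 10 in BAT, where Scd1 was at -1.16 (adjusted p = 0.0167), and the labels do not say whether the numbers pair the samples.

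Between depots of Control mice, 7 genes passed under the adipocyte scaling, all higher, where 5999 of all genes passed. Without TMM 2 passed (1 of them lower), and 3 under limma on log2(FPKM + 1) or log2(FPKM + 0.1) (2 of them lower). Without Control BAT library 2 or 5, 3 passed (1 of them lower). Under limma on log2(FPKM + 1) without a filter 1 passed, and 1 with the B cell covariate. Estimates of the other sign were Me1 at 0.055 under the adipocyte scaling, and Scd1 at -0.016 under each limma fit, at -0.35 and -0.20 with the muscle and B cell covariates, and at -0.021 without Control BAT library 3 (-0.021 to 0.46 over the leave-one-out fits). Between depots of Ai-α4KO mice, 0 passed with the muscle covariate (36 of all genes) and 3 with the B cell covariate (341 of all genes). The main fit called 1689 of all genes, and the estimates of the lost calls are given above. From 6 to 8 passed with 1 library left out, and 8, with Fasn, by DESeq2, by limma on filtered genes and with the replicate block. Srebf1 was at 0.40 under the adipocyte scaling and 0.060 without Ai-α4KO iWAT library 1 (-0.28 to 0.060 over the leave-one-out fits). For the interaction, where edgeR called 740 of all genes, 3 passed by DESeq2 (1648 of all genes), 1 with at least 10 counts in every library (852), 4 at an adjusted p below 0.05 (2297), 2 by limma on log2(FPKM + 0.1) (633), 1 with the B cell covariate (373) and 0 to 2 with 1 library left out, and Mlxipl was at -0.068 under the adipocyte scaling. Over all genes, calls without TMM in BAT were 1265 lower and 3251 higher, against 1910 and 2614 with it. The cause of these changes was not tested. Each gene had at least 556 counts per library, so counting error is small beside the spread of 5 libraries per group.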
